A study of Rattus norvegicus with 4 samples.

Results

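The genes described here are those of leukocyte and endothelial adhesion in the colon of rats that received mesenchymal stem cell transplantation (MSCT) and of control rats. They were listed by symbol as Icam1, Madcam1, Sele, Selp, Selplg, Pecam1, Itgam, Itgal and Itgb2, and a gene was kept where its RefSeq transcript had a value on all 4 arrays. Of the 9 listed genes, 4 were measured (Icam1, Madcam1, Pecam1 and Itgal), out of 6968 measured genes that could be named. Sele, Selp and Itgam each had a row that was blank on all arrays, by a rule that is not described, and Selplg and Itgb2 were not matched to a row and were not analysed here. A blank row gives no level, so nothing is said of these 5 genes beyond this.

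Colon RNA of male Sprague Dawley rats was measured on NimbleGen arrays with 1 dye (Cy3), 2 arrays of control rats and 2 of MSCT rats, each from a separate animal. The MSCT rats had colitis induced by rectal 2,4,6-trinitrobenzene sulfonic acid (TNBS) in ethanol, and mesenchymal stem cells that carried green fluorescent protein were then infused through the tail vein. The sample descriptions call the control animals normal rats, while the methods and the text of the series name controls with inflammatory bowel disease (IBD), so the control group is given no disease state here, and effects of colitis and of the cells cannot be told apart if these rats were normal. The labels give neither age nor day of sampling, and the Results and Methods of the study place these arrays on different days. The infused cells, a commercial preparation whose source animal is not given, had been typed by flow cytometry for CD44 and for CD54, the protein of Icam1. All values are log2 intensity of 1 transcript row on 1 array, and levels of different genes are not set against each other because their probes differ.

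White blood cells leave the blood in steps. Selectins on activated endothelium and platelets (Sele, Selp) hold them loosely through ligands such as PSGL-1, which Selplg encodes. Leukocyte integrins, pairs of an alpha subunit (Itgal, Itgam) and the shared beta subunit Itgb2, then bind endothelial ligands of the immunoglobulin family such as ICAM-1 firmly, and PECAM-1 at the junctions takes part in the passage through the vessel wall. MAdCAM-1 is the ligand by which venules of the gut receive lymphocytes that carry the integrin of Itga4 and Itgb7, and antibodies to integrins of this route are used in human IBD.

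Of the measured endothelial ligands, Icam1 and Madcam1 had a promoter window in the RefSeq tables of the assembly GRCr8, and the 250 bases before each transcript start are shown because transcription of both genes is known to answer to inflammatory signals. The Icam1 window is chr8:27829595-27829844 on the plus strand and the Madcam1 window is chr7:10690323-10690572 on the minus strand. Capitals mark every match, on either strand, to GGAANNNCC (letters shared by many NF-kB sites), TTCNNNGAA (the spaced half-sites read by STAT factors) and TATAAA (the TATA box). No 2 matches overlapped.
Icam1: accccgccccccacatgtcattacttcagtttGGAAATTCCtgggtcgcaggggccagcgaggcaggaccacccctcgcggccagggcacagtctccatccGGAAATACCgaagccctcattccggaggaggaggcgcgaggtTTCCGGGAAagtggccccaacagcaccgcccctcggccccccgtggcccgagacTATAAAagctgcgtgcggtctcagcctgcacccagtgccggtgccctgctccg
Madcam1: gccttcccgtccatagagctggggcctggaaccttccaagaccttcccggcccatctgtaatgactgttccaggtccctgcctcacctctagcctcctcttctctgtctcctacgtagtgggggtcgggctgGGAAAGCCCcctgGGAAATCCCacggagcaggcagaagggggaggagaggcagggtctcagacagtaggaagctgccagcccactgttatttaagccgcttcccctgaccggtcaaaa
The Icam1 window held 2 matches to GGAANNNCC (GGAAATTCC and GGAAATACC), 1 to TTCNNNGAA (TTCCGGGAA) and 1 to TATAAA. The Madcam1 window held 2 matches to GGAANNNCC (GGAAAGCCC and GGAAATCCC) and none to the others. Of all 33469 windows of this length, 15.4% held GGAANNNCC, 7.67% held TTCNNNGAA and 12.9% held TATAAA, and no binding was measured in these rats.

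The expression of Icam1 and Itgal was higher in the MSCT group than in the control group on every array, whereas the arrays of the 2 groups overlapped for Madcam1 and Pecam1. The mean difference was 0.90 for Icam1 and 1.38 for Itgal on the log2 scale, or 1.87-fold and 2.60-fold. By limma, a linear model that shares its estimate of the variance between rows, 2 of the 4 measured genes had an unadjusted p under 0.05, both higher in the MSCT group, beside 12.0% of all 18350 measured rows in either direction and 4.80% with the MSCT group higher. Of the 4 genes, 1 (Itgal) also passed the fold limit of 2 used by the study as its screen (background 4.63% in either direction and 2.12% with the MSCT group higher), and none passed an adjusted p of 0.05 over all rows (background 0%). By the methods' t-test, which is one-way analysis of variance for 2 groups, Icam1 was the 1 gene with an unadjusted p under 0.05, and again none passed after adjustment. All 4 differences were above 0, as were 48.0% of those of all rows and those of 3885 of the 6968 named genes. Of the named genes, 475 were higher and 379 lower in the MSCT group with an unadjusted limma p under 0.05. The median of the 4 members was 0.75, beside -0.02 over all rows and 0.05 over the named genes. With 2 arrays against 2, the smallest two-sided p of an exact permutation test is 0.333, so the limma p-values here rest on the variance shared across rows. That variance mixes the spread between the 2 rats of a group with the spread of other rows, and is not the spread of a gene alone.

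Among the endothelial ligands, Icam1 (NM_012967) encodes the receptor for the integrins that Itgal and Itgam form with Itgb2. Its log2 intensity was 8.25 and 8.11 in the control rats and 9.02 and 9.14 in the MSCT rats. The 2 groups did not overlap, as in 45.8% of all rows, and the replicates lay close together within both groups. The group means were 8.18 ± 0.10 and 9.08 ± 0.09 (SD, n = 2 each), a difference of 0.90 (standard error 0.19, 95% interval 0.39 to 1.41, limma adjusted p = 0.291). Rows of similar brightness (the second quartile of all rows by mean intensity) had a median SD within groups of 0.31, against 0.10 for Icam1. In that quartile 15.4% of rows had an unadjusted p under 0.05, and 11.6% had a difference at least as large as that of Icam1. Without MSCT replicate 2 the difference was 0.84 and its unadjusted limma p was 0.0512.

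Madcam1 (NM_019317), the gut homing ligand, gave 8.36 and 6.82 in the control rats and 8.49 and 7.88 in the MSCT rats. Control replicate 1 lay between the MSCT arrays and control replicate 2 lay below the other 3 arrays. The difference was 0.59 (standard error 0.58, 95% interval -0.96 to 2.14, limma adjusted p = 0.713), so that neither a fall of nearly 2-fold nor a rise of over 4-fold lay outside the interval. The control arrays were 1.54 apart, and in the dimmest quartile of rows, to which Madcam1 belongs, 7.26% of rows had control arrays at least as far apart. The direction followed a single array, with a difference of -0.18 without control replicate 2 and 1.36 without control replicate 1, where the unadjusted p of limma was 0.0289.

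Pecam1 (NM_031591) encodes the platelet and endothelial adhesion molecule of cell junctions, also known as CD31, which leukocytes and platelets carry too. Its log2 intensity was 10.16 and 9.52 in the control rats and 9.96 and 10.30 in the MSCT rats. Control replicate 1 lay between the MSCT arrays, and control replicate 2 was again the lowest of the 4. The difference was 0.29 (standard error 0.30, 95% interval -0.53 to 1.10, limma adjusted p = 0.731), and it was -0.039 without control replicate 2. The interval does not show that Pecam1 was equal in both groups, as it holds a rise of 2-fold.

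On the leukocyte side, Itgal (NM_001033998) encodes the alpha subunit of LFA-1, the integrin by which lymphocytes and other white blood cells hold to ICAM-1. Its log2 intensity was 7.93 and 8.78 in the control rats and 9.32 and 10.14 in the MSCT rats. All MSCT arrays lay above all control arrays, but the replicates of each group were far apart, by 0.86 and 0.82. The group means were 8.35 ± 0.61 and 9.73 ± 0.58 (SD, n = 2 each). The difference was 1.38 (standard error 0.44, 95% interval 0.22 to 2.54, limma adjusted p = 0.365). In the second quartile of rows by brightness, to which Itgal also belongs, 3.07% of rows had a difference at least as large. Its partner Itgb2 was not analysed here, so nothing is known from these arrays about the other subunit of LFA-1. One-way analysis of variance, which uses the variance of this row alone, gave Itgal an unadjusted p of 0.145, against 0.0293 by limma. It was 0.117 without control replicate 1 and 0.100 without MSCT replicate 2 by limma, with differences of 0.95 and 0.97.

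**Figure D1:**
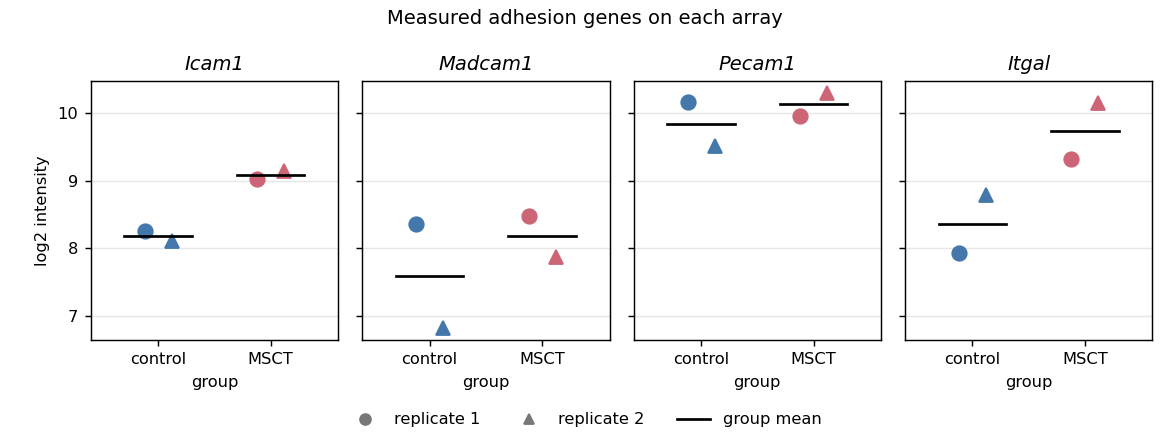
Log2 intensity of the 4 measured adhesion genes on each array (vertical axis), by group (horizontal axis), with circles for replicate 1, triangles for replicate 2 and a black line at the mean of each group; levels are not comparable between genes. The groups are apart for Icam1 (8.11 to 8.25 against 9.02 to 9.14) and Itgal (7.93 to 8.78 against 9.32 to 10.14) and overlap for Madcam1 and Pecam1.

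The stability of these 4 differences was compared over 13 other settings, which changed the test, the scaling, the filter, the variance model, an offset, the rows or the arrays. Icam1 was higher in the MSCT group in every setting that kept its row, with differences from 0.80 to 0.98, and its adjusted p lay between 0.126 and 0.662. Itgal was likewise higher in every such setting, from 0.95 to 1.81 (adjusted p from 0.137 to 0.643). Madcam1 ranged from -0.18 to 1.36 and Pecam1 from -0.039 to 0.61, both with a change of sign.

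**Figure D2:**
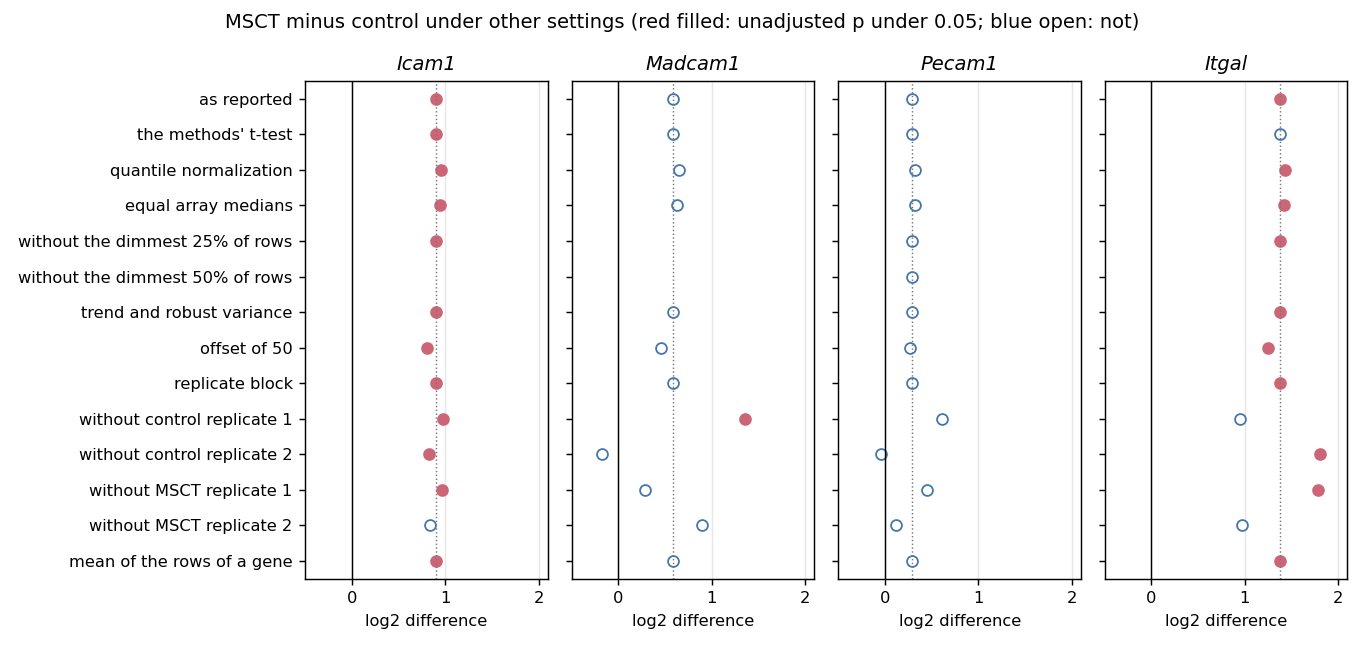
Log2 difference, MSCT minus control (horizontal axis), of the 4 measured adhesion genes as reported and under each other setting (vertical axis), red and filled where the unadjusted p was under 0.05 and blue and open where it was not; a missing point means that the filter left the gene out. Icam1 stays between 0.80 and 0.98, and Madcam1 and Pecam1 cross 0 when control replicate 2 is left out. The setting labeled the methods' t-test is one-way analysis of variance, and the study's methods name no test for the arrays.

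The profiles of the 4 genes over the arrays were compared with those of the other 6967 named genes, each centred on its mean, by the root mean square distance on the log2 scale. These distances describe 4 arrays only, and the profiles were not scaled, so the size of a difference counts in the distance as well as its pattern. The nearest profiles to Icam1 were those of Eng, which encodes the endothelial co-receptor endoglin, and Hsph1, a heat shock protein (both at 0.04), and 177 genes lay within 0.2. Eng gave 7.76 and 7.70 in the control rats and 8.52 and 8.65 in the MSCT rats. Nearest to Itgal were Slc34a2, a phosphate transporter (0.10), and Angptl4, a secreted inhibitor of lipoprotein lipase (0.11), with 8 genes within 0.2. Nearest to Madcam1 were Ly49i3 (0.06) and Vom2r18 (0.10), and nearest to Pecam1 were Dpep2 (0.02) and Hps6 (0.04), with 13 and 412 genes within 0.2. Between the members, Icam1 was nearest to Pecam1 (0.36) and farther from Itgal (0.49) and Madcam1 (0.58), all beyond the limit of 0.2. This order does not rank shared patterns, as the 2 groups were apart for Icam1 and Itgal and overlapped for Pecam1.

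The other genes of leukocyte adhesion were read from a list of 72, of which 39 were measured, 6 were blank and 27 had no row by name. In this list 22 genes were higher and 17 lower in the MSCT group, with a median difference of 0.08 (-0.027 without control replicate 2). An unadjusted limma p under 0.05 was found for 6 genes (15.4%, beside 12.0% of all rows), 4 higher (Pvr, Cd44, Fyn and Syk, beside 4.80% of all rows) and 2 lower (Skap1 and Plcg2, beside 7.17%), and none passed an adjusted p of 0.05 in the fit as reported. The share is near that of all rows and that of the 6968 named genes (12.3%), of which 475 were higher and 379 lower with such a p. The count was 2 without MSCT replicate 1 (Pvr and Skap1), and between 2 and 7 over the single arrays left out.

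Among endothelial adhesion molecules and junction proteins, 10 of 17 genes were measured, 5 higher and 5 lower. Pvr (NM_017076), the poliovirus receptor CD155, an adhesion molecule of the nectin family that binds receptors of T cells and natural killer cells, gave 9.51 and 9.43 in the control rats and 10.87 and 10.85 in the MSCT rats. The replicates of Pvr were nearly equal and the groups far apart. The difference was 1.39 (standard error 0.18, limma adjusted p = 0.257), and the adjusted p was 0.0125 without the dimmest 50% of rows and 0.0132 with the trend and robust options of the variance estimate together, within a range of 0.0125 to 0.633 over all settings. Vcam1, the inducible endothelial ligand of the integrin with the subunit Itga4, gave 7.31 and 7.95 in the control rats and 7.31 and 6.99 in the MSCT rats (difference -0.48, standard error 0.30, limma adjusted p = 0.573). It lay opposite in sign to Icam1, although the 2 are known as inducible endothelial ligands, and its control array 1 equaled MSCT array 1 to 2 decimals. Icam2, another ligand of LFA-1 that resting endothelium carries, gave 8.22 and 6.70 in the control rats and 9.02 and 7.81 in the MSCT rats (difference 0.96, standard error 0.67). As for Madcam1, control replicate 2 was the lowest array of Icam2 and the groups overlapped. Cdh5, which encodes the cadherin of endothelial junctions, was not analysed here.

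Of the enzymes that build the ligands of selectins, 6 of 10 genes were measured, and all 6 were higher in the MSCT group. None had an unadjusted p under 0.05, and their differences ran from 0.08 (Tpst1, a sulfotransferase that modifies PSGL-1) to 0.69 (St3gal4, a sialyltransferase). The groups did not overlap in 5 of the 6, with the MSCT group higher, beside 21.3% of all rows and 1925 of the 6968 named genes in that direction. St3gal4 gave 10.89 and 11.43 in the control rats and 11.71 and 11.99 in the MSCT rats. The enzymes of this list also act on many other glycoproteins.

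Of the other integrin subunits, 5 of 16 were measured and none had an unadjusted p under 0.05. Their differences ran from -0.17 (Itgae, the alpha subunit of lymphocytes within the epithelium) to 0.47 (Itgb6, an epithelial beta subunit). Itga4, Itgb7 and Itgax had no row by name, so the receptor of MAdCAM-1 was not analysed here.

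Among the genes of integrin activation, 12 of 16 were measured, 5 higher and 7 lower, and 4 had an unadjusted p under 0.05 (33.3%, beside 12.0% of all rows), 2 in each direction. Skap1 (NM_173311), an adaptor by which the T cell receptor raises the binding of LFA-1, gave 8.25 and 7.83 in the control rats and 6.07 and 7.07 in the MSCT rats. It was lower on both MSCT arrays, which lay 1.00 apart, where the LFA-1 subunit Itgal was higher (difference of Skap1 -1.47, standard error 0.41, limma adjusted p = 0.338). Fyn, a kinase of the Src family, differed by 0.88 (standard error 0.22) and Syk, a kinase downstream of integrins and immune receptors, by 0.49 (standard error 0.18). Plcg2, a phospholipase of B cells and myeloid cells, differed by -0.66 (standard error 0.22). Each of these 4 lost its unadjusted p under 0.05 in at least 1 setting, and Syk did so without any 1 of the arrays.

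Of the remaining leukocyte adhesion molecules, 6 of 13 were measured. Cd44, the hyaluronan receptor of leukocytes, epithelium and stromal cells, gave 8.73 and 9.52 in the control rats and 10.37 and 9.86 in the MSCT rats. The groups did not overlap, and the difference was 0.99 (standard error 0.36, limma adjusted p = 0.412). Its unadjusted limma p was 0.156 without control replicate 1 and 0.168 without MSCT replicate 1. The other 5 differed by between -0.25 (Cd200) and 0.06 (Cd48).

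**Figure D3:**
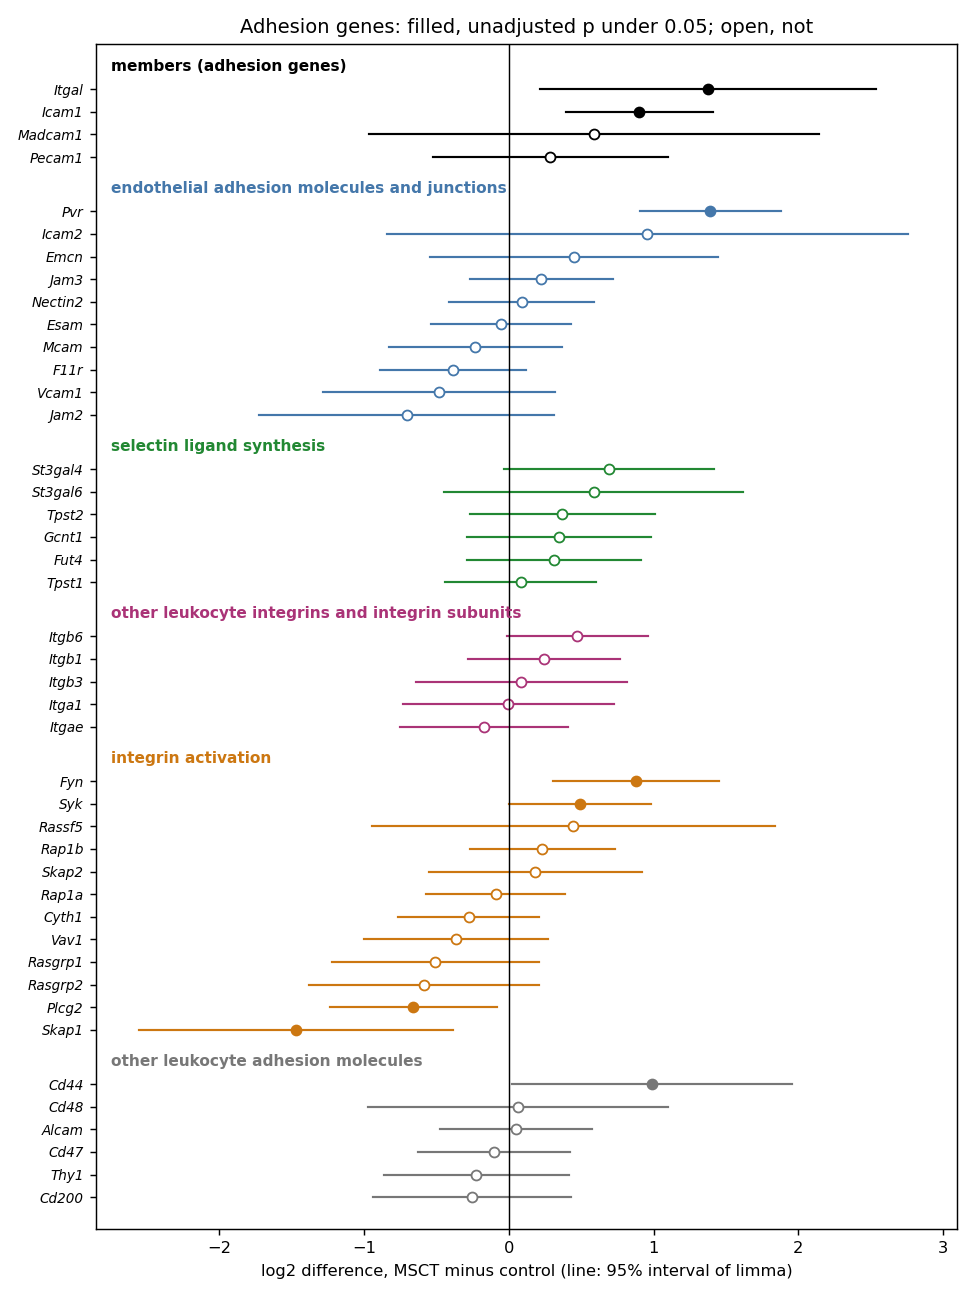
Log2 difference, MSCT minus control, with the 95% interval of limma (horizontal axis), of the 4 measured members and the 39 measured genes of the wider adhesion list, grouped by role (vertical axis); filled points had an unadjusted p under 0.05. Of the 39, 22 lie to the right of 0 and 17 to the left, and the 4 members lie to the right.

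Genes that mark cell types were read beside the adhesion genes, because whole colon was measured and fewer cells of a type cannot be told apart from less RNA per cell. Epithelial and smooth muscle markers were bright on all arrays (mean log2 intensity of each list from 13.8 to 15.1), as for colon, with differences from -0.28 to 0.48 and from -0.04 to 0.08, and Actb, Gapdh, Hprt1 and B2m, used as reference genes, differed by between -0.19 and 0.44. Of the pan-leukocyte markers, 10 of 14 were measured and 9 were higher in the MSCT group, as were 48.0% of all rows and 3885 of the 6968 named genes. An unadjusted limma p under 0.05 was found for 7 of the 9, and 1 gene (Cd52) was lower with such a p. The shares of all rows were 4.80% higher and 7.17% lower with such a p, and of the named genes 475 and 379 were. Their summed intensity was 6426 and 8131 in the control rats and 10611 and 12377 in the MSCT rats, with both MSCT arrays above both control arrays as for Itgal and Icam1. Ptprc, which defines leukocytes, had no row by name.

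Of the monocyte and macrophage markers, 11 of 15 were measured and 10 were higher, 9 of them with an unadjusted p under 0.05. In this and the following marker lists no gene was lower with such a p. The share of all rows that were higher with one is 4.80%, and 475 of the 6968 named genes were. The summed intensity of the macrophage markers was 17939 and 19423 in control and 26076 and 30660 in MSCT rats. Cd14, the marker of this list that was not higher, made up much of it. It gave 9308 and 10814 in control and 8986 and 10578 in MSCT rats (difference -0.04), and its groups overlapped. Of the T cell markers, 5 of 12 were measured and 1 (Zap70) had such a p, with a list median of 0.13. Their sums were 1168 and 887 against 1429 and 1432, but Zap70 alone gave intensities of 114 and 96 against 612 and 245. It was the only 1 of the 5 whose groups did not overlap. Cd3e had no row and Cd3d was blank. Of the neutrophil markers, 2 of 13 were measured (sums of 352 and 287 against 626 and 560). Of the blood endothelium markers, 11 of 20 were measured, 10 were higher and 3 had an unadjusted p under 0.05, with sums of 7012 and 6469 against 8107 and 9058. Of the B cell markers 2 of 9 were measured (Cd74 and Blk), both higher with an unadjusted p under 0.05. Cd74 gave 10824 and 8016 of the summed intensity of 10928 and 8085 in the control rats, and Blk lay in the dimmest quartile of rows. These 2 genes say little of B cells. Of the lymphatic markers 3 of 5 were measured, none with such a p. The part of these shifts in the differences of Icam1 and Itgal was not tested.

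The lymphoid follicle and high endothelial venule markers, the setting in which MAdCAM-1 is best known, had 4 of 10 genes measured. Their summed intensity was 4416 and 2225 in the control rats and 3540 and 4294 in the MSCT rats. Most of this sum was Ccl21 (3871 and 1946 against 2926 and 3691), which is also on the lymphatic list. Control replicate 2 was the lowest array here, as it was for Madcam1. It was also the lowest by summed intensity for the lymphatic and blood endothelium, T cell, B cell, neutrophil, epithelial and smooth muscle lists. For the pan-leukocyte, macrophage and platelet lists control replicate 1 was the lowest. The part of this in the value of Madcam1 was not tested.

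**Figure D4:**
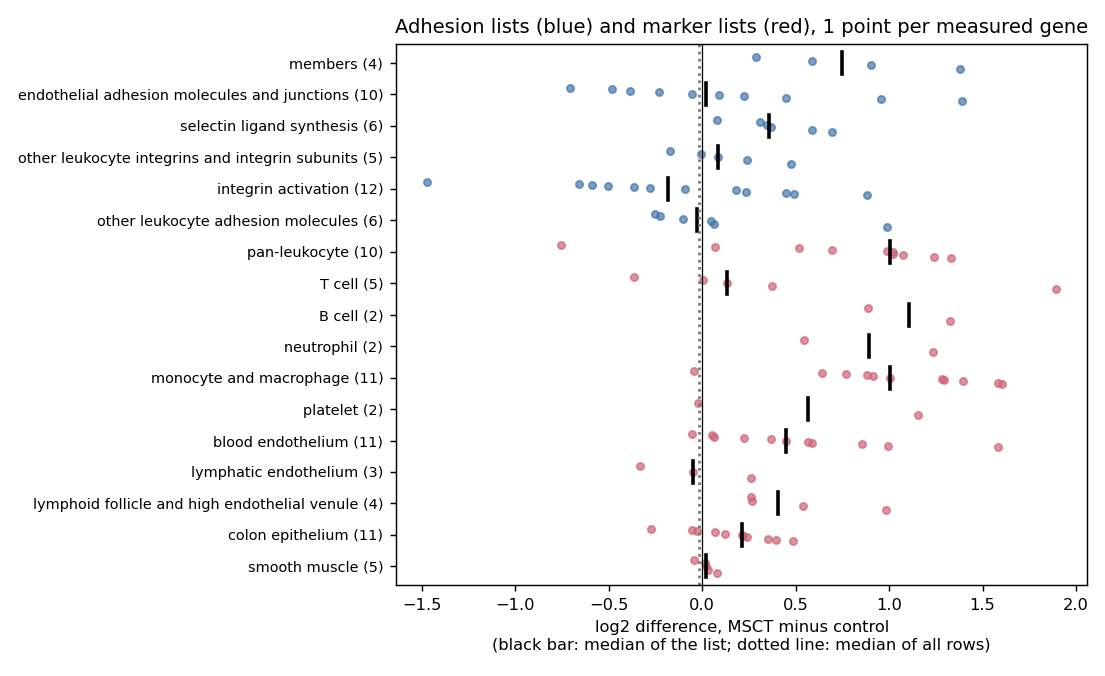
Log2 difference, MSCT minus control (horizontal axis), of each measured gene of the adhesion lists (blue) and the cell type marker lists (red), with the number of genes in brackets, a black bar at the median of each list and a dotted line at the median of all rows (-0.02). The medians of the members (0.75) and of the B cell (1.10), pan-leukocyte (1.00), macrophage (1.00), neutrophil (0.89), platelet (0.57), blood endothelium (0.45) and lymphoid follicle (0.40) markers lie to the right of those of the wider adhesion lists (at most 0.36). The B cell, neutrophil and platelet medians rest on 2 genes each, and the median of the T cell markers was 0.13.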

How the data were processed

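The authors scanned 4 one-color NimbleGen arrays with a GenePix scanner, used NimbleScan and deposited 1 linear intensity per RefSeq transcript and array. The submitters' processing notes name RMA (a background, scaling and probe summary method), whose role and settings are not given in the sources used here, and the array medians of the deposited log2 intensity lay between 9.73 and 9.80. Of 26420 rows, 18350 held a value on all 4 arrays. Values were converted to log2 without offset, filter or further scaling.

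Rows were named through the RefSeq table of GRCr8, used for names and promoters only, which named 7068 measured rows (38.5%), with the row of highest mean kept for each gene. With limma (version 3.58.1, R version 4.3.3, default lmFit and eBayes), MSCT was compared with control over all measured rows, with Benjamini-Hochberg adjustment over them. The code of the fit was run on simulated rows with independent noise and variances drawn from the model that limma fits. That run checks the code only and cannot check the p-values of these arrays. The numbers of arrays limit the precision of each value. Lists and figures were made in Python (3.11.15; pandas 2.3.3; matplotlib 3.10.9).

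The members and lists were chosen with earlier results of these data known. A further gene of the wider list as first written was taken out of it and is not reported here. Named are the 9 members, genes of the wider list with an unadjusted p under 0.05, set partners of the members, the brightest 2 genes of each marker list at most, the 2 nearest profiles of each member and 4 reference genes. Genes named outside this rule (the ends of a range and Cd52, Ptprc, Cd3e, Cd3d, Zap70, Plvap and Ramp2) were chosen after their values were seen. Alternatives were quantile normalization, one-way analysis of variance, arrays set to one median, filters on dim rows, and the trend and robust options of eBayes. Others were an offset of 50, the replicate number as a block, each array left out, and the mean of the rows of a gene.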

Additional observations from a re-analysis of the deposited data

How the results depend on the processing

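Of the 4 measured adhesion genes, 2 had an unadjusted p under 0.05 as reported and 1 by one-way analysis of variance. The count was 0 without the dimmest 50% of rows, which leaves Pecam1 alone. The count past the study's screen was 1 as reported, 0 by one-way analysis of variance and 0 without the dimmest 50% of rows. These counts of members come from fits of all 4 arrays and do not show that the calls hold with an array left out. With single arrays left out, the difference of Icam1 ran from 0.83 to 0.98 and that of Itgal from 0.95 to 1.81. In all settings that kept the 4 arrays, none of the measured members passed an adjusted p of 0.05. The median difference of the members was 0.29 without the dimmest 50% of rows, and 0.40 (without control replicate 2) to 0.96 with single arrays left out. For the wider list, the count with an unadjusted p under 0.05 was 2 (without MSCT replicate 1) to 7 with single arrays left out, and the median difference -0.027 (without control replicate 2) to 0.17 (without control replicate 1). With single arrays left out, Madcam1 ranged from -0.18 to 1.36 and Pecam1 from -0.039 to 0.61, both negative without control replicate 2. The cause was not tested for any of these beyond the fewer genes or arrays that a setting leaves.

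Madcam1 was left out by the filter on the dimmest 25% of rows, and Icam1, Itgal and Madcam1 by that on the dimmest 50%. The deviations of same-numbered arrays from their group means correlated across rows at 0.23, but with 2 pairs and no label that ties the numbers to a batch, the samples share only a number. With the replicate block, Icam1 and Itgal kept an unadjusted p under 0.05 (count of 2, differences of 0.90 and 1.38), and the count of the wider list was again 6, of which 4 were shared with the 6 as reported (Cd44 and Syk lost the call, and Icam2 and St3gal4 gained it). In all, 8070 rows were blank on all arrays, and 5 of 9 members gave no value. The dimmest 50% of rows, with a wider spread, hold 3 of the 4 measured members.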

Other observations

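The markers of blood endothelium differed unevenly between the groups. Plvap, which encodes the protein of the diaphragms of endothelial fenestrae, gave 8.73 and 8.44 in the control rats and 10.08 and 10.25 in the MSCT rats (difference 1.58, standard error 0.21, limma adjusted p = 0.257). Its replicates lay close and its groups did not overlap, as in 45.8% of all rows. Eng and Ramp2 also had an unadjusted limma p under 0.05, with differences of 0.85 (standard error 0.19) and 0.99 (standard error 0.27). Of the 11 measured markers of this list 10 were higher and 1 lower, where 48.0% of all rows were higher. Esam and Cldn5, the brightest junction genes of the endothelial list, differed by -0.05 (standard error 0.18) and 0.37 (standard error 0.30), and their unadjusted p was above 0.05. Of the platelet markers, 2 of 9 were measured: Pf4, a chemokine of platelet granules, gave 6.93 and 7.26 in the control rats and 7.42 and 9.08 in the MSCT rats, and Gp1bb differed by -0.02.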
